A study of Mus musculus with 16 samples.

Results

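Transcripts of 10 Wnt genes were followed across sorted mouse liver cells: the ligands Wnt2 and Wnt9b, the R-spondins Rspo3 and Rspo1, the R-spondin receptors Lgr4 and Lgr5, the membrane ligases Znrf3 and Rnf43, and the transcriptional targets Axin2 and Tbx3. They were taken by symbol from the 47729 genes of the count files, and all 10 had a row. The question was where each ligand, receptor and target is found among the liver cell types, and whether its level differs when endothelial Zeb2 is targeted.

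Wnt proteins bind Frizzled receptors together with Lrp5 or Lrp6 and stabilise β-catenin, which acts with TCF factors on target genes. Znrf3 and Rnf43 are ubiquitin ligases that remove Frizzled from the cell surface, and R-spondins bound to Lgr4 or Lgr5 clear these ligases and so raise the response to Wnt. In the liver, endothelial cells around the central vein are a known source of Wnt2, Wnt9b and Rspo3, which keep the neighbouring hepatocytes in the pericentral program.

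The 16 libraries came from unchallenged livers of 8-week-old male mice and covered endothelial cells (ECs), hepatic stellate cells (HSCs), Kupffer cells (KCs) and hepatocytes (HEPs), with 2 libraries for each cell type and genotype label. Mice of the KO label carried floxed Zeb2 (exon 7), the tamoxifen-inducible Cdh5-CreERT2 driver, which acts in endothelium throughout the body, and a Cre-dependent eGFP reporter. WT mice were Cre-negative littermates that received tamoxifen as well, so that tamoxifen was shared by all groups, and RNA was taken 2 weeks after it. ECs were sorted with a pan-endothelial antibody, HSCs by their ultraviolet autofluorescence and KCs by F4/80, whereas HEPs were separated by centrifugation. The labels do not state which libraries share a liver, nor that the 2 libraries of a group are separate animals, so that p-values measure the spread between these libraries only. Libraries are named by the number in their title.

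Each library held between 12872706 and 15690506 reads on genes, and 3 reads, taken as the detection floor, correspond to 0.191 to 0.233 counts per 1e+06 reads (CPM). Levels are given as CPM of all reads on genes. Zeb2 itself had 106 and 106 CPM in the WT EC libraries and 199 and 130 CPM in the EC libraries labelled KO (log2 fold change 0.62 ± 0.24 SE, edgeR adjusted p = 0.303). This count spans all exons of the gene and cannot show the loss of 1 exon, so that the groups are called by their labels throughout. The authors report efficient deletion of Zeb2 in the endothelium of such mice, by mRNA level and by the share of ECs that gained eGFP. In libraries of other cell types, the median of 10 EC markers was at most 6.12% of its EC level and that of 10 HSC markers at most 1.94% of its HSC level and that of 10 KC markers at most 4.81% of its KC level, whereas the median of 10 HEP markers reached 23.5% of its HEP level in a WT EC library.

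**Figure D1:**
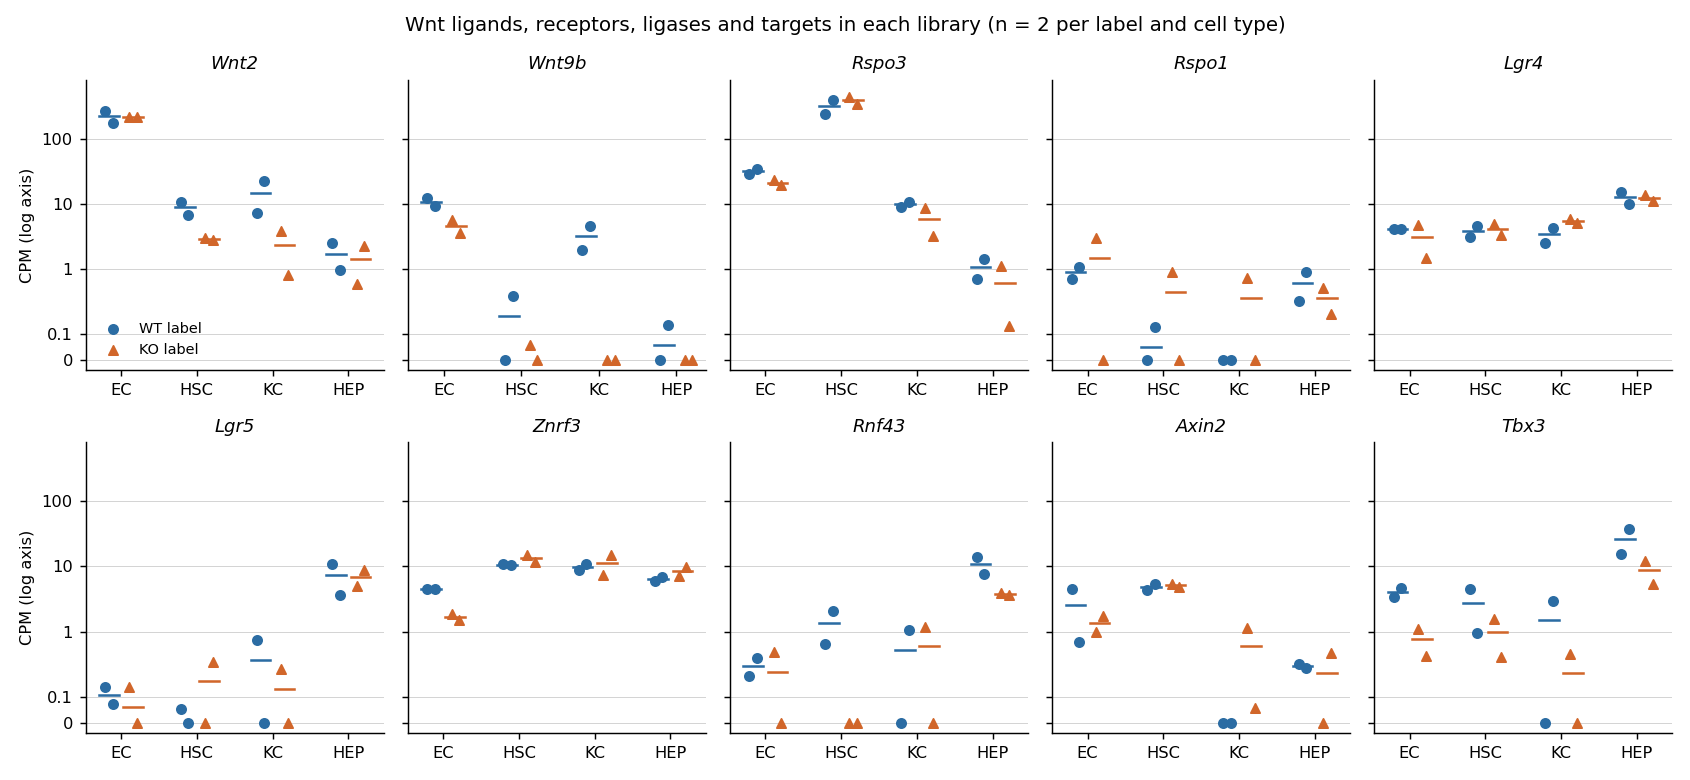
CPM of each of the 10 genes (log axis, with libraries at 0 drawn at the foot) in ECs, HSCs, KCs and HEPs; circles are WT and triangles KO-labelled libraries, and bars are the means of 2. Wnt2 and Wnt9b were highest in ECs, Rspo3 in HSCs, and Lgr4, Lgr5, Rnf43 and Tbx3 in HEPs.

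Wnt2 (ENSMUSG00000010797, chr6:17988940-18030585, minus strand, GRCm38) was an EC transcript, and Rspo3 (ENSMUSG00000019880, chr10:29452416-29535867, minus strand) an HSC transcript with a lower EC level. Comparisons between cell types were made with edgeR on all 16 libraries with the labels averaged, and p-values were adjusted over 17214 genes. For ECs against HSCs, 4 of the 10 genes passed the threshold of an adjusted p of 0.05 beside 26% of all genes tested, 2 higher in ECs (13.3% of all genes) and 2 lower (12.8%). For ECs against HEPs, 8 of 10 passed (58.7% of all genes), 3 higher in ECs (33.2%) and 5 lower (25.5%). For HSCs against HEPs, 6 of 10 passed (58.4%), 2 higher in HSCs (34%) and 4 lower (24.4%). For KCs, 5 of 10 passed against ECs (32%), 2 of 10 against HSCs (42.9%) and 5 of 10 against HEPs (55.6%).

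The scale matters for comparisons with HEPs. The trimmed-mean (TMM) factors used in the tests lay between 0.497 and 0.588 in the HEP libraries and between 1.01 and 1.47 in the others, so that HEP levels rise relative to plain CPM in the tests. On library totals alone, the median gene was 1.85 log2 units higher in ECs than in HEPs, against 0.54 with the factors, a shift of 1.31. The shift was 1.07 for HSCs against HEPs, 0.99 for KCs against HEPs, 0.31 for ECs against KCs and 0.24 for ECs against HSCs. Fold changes between cell types below are on the TMM scale, and the order of levels is on the CPM scale.

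Wnt2 stood at 265 and 173 CPM in the WT ECs and at 211 and 218 CPM in the KO-labelled ECs. In HSCs it had 10.8 and 6.85 CPM in WT and 2.97 and 2.77 CPM under the KO label, and in KCs 7.11 and 22.3 CPM in WT and 3.82 and 0.812 CPM under the KO label. In HEPs it had 2.49 and 0.955 CPM in WT and 0.580 and 2.22 CPM under the KO label. All EC libraries were thus above all libraries of the other cell types, and the 2 labels overlapped in ECs and did not overlap in HSCs or KCs. Between ECs and HSCs the difference was 5.19 ± 0.56 log2 units (adjusted p = 3.22e-05), and between ECs and HEPs 5.75 ± 0.59 (adjusted p = 4.41e-06). KCs, HSCs and HEPs, next in the order, did not differ from their neighbours (0.26 ± 0.50 for KCs over HSCs, adjusted p = 0.714, and 0.56 ± 0.53 for HSCs over HEPs, adjusted p = 0.377).

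Wnt9b (ENSMUSG00000018486, chr11:103727364-103749821, minus strand), the second central vein ligand, was a low EC transcript. It had 12.1 and 9.32 CPM in the WT ECs and 5.71 and 3.55 CPM in the KO-labelled ECs. The only other libraries above 0.384 CPM were the 2 WT KC libraries, with 1.95 and 4.57 CPM, while no read fell on Wnt9b in either KO-labelled KC library. HSC libraries held 0, 6, 1 and 0 reads and HEP libraries 0, 2, 0 and 0, which is near or under the floor. ECs were higher than KCs (5.05 ± 1.19 log2 units, adjusted p = 0.00907), HSCs (adjusted p = 0.00335) and HEPs (adjusted p = 0.00122). In the WT libraries alone, the difference between ECs and KCs was 1.39 log2 units and did not pass (adjusted p = 0.454).

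Zeb2 is known to bind E-boxes, and RefSeq promoters (GRCm38.p6) were on hand for 6 of the 10 genes (Wnt2, Wnt9b, Rspo1, Lgr4, Rnf43 and Axin2), not for Rspo3, Lgr5, Znrf3 and Tbx3. The 250 bases before the start of both endothelial Wnt ligands are shown, as ECs are the cells in which Zeb2 was targeted. The E-box CACCTG, searched on both strands, is in capitals, and so would be the TCF sequence CTTTGAT.
Wnt2 (chr6:18030446-18030695, minus strand): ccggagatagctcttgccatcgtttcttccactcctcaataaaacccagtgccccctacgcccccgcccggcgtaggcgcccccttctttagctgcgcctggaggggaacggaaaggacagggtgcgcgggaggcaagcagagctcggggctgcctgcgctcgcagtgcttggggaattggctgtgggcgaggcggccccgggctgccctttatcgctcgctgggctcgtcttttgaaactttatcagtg
Wnt9b (chr11:103749822-103750071, minus strand): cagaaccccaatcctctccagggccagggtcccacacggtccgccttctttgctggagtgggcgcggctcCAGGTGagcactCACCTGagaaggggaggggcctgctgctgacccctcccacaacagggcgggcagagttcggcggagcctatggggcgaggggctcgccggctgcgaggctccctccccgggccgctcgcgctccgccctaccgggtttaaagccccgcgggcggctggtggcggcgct
The Wnt9b window held 2 E-boxes in opposite orientation, starting 180 and 168 bases before the transcription start with 6 bases between them, and the Wnt2 window held none. Of 32851 mouse promoter windows of the same length, 17.2% held the E-box and 2.06% held it at least 2 times. None of the windows of Wnt2, Wnt9b, Rspo1, Lgr4, Axin2 or Rnf43, which has 2 listed starts, held CTTTGAT, which 3.21% of all windows held. A match is a string of letters, not a site shown to be bound, and no match says only that these letters are not in this window.

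Rspo3, the R-spondin of the group with the higher level, had 242 and 390 CPM in WT HSCs and 431 and 341 CPM in KO-labelled HSCs. In ECs it had 28.5 and 34.3 CPM in WT and 22.8 and 19.5 CPM under the KO label. In KCs it had 9.05 and 10.7 CPM in WT and 8.57 and 3.18 CPM under the KO label, and HEP libraries lay between 0.135 and 1.43 CPM. The 4 cell types did not overlap, and every step of the order HSC, EC, KC, HEP passed: 4.005 ± 0.42 log2 units (adjusted p = 2.34e-05), 1.44 ± 0.38 (adjusted p = 0.0133) and 2.17 ± 0.45 (adjusted p = 0.00127). The EC level of Rspo3 was 5.55% to 9.78% of its HSC mean, whereas the median of the 10 HSC markers in the same libraries was 0.481% to 1.94%. An antisense gene, Gm48159, overlaps 404 exonic bases of Rspo3, and the strand setting of the counting is not given in the sources used here.

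Rspo1 (ENSMUSG00000028871, chr4:124986430-125009099, plus strand), a second R-spondin, was low in every cell type. The highest value was 2.99 CPM (43 reads) in KO-labelled EC library 6, while the other KO-labelled EC library had no read. WT ECs had 0.698 and 1.09 CPM and HEPs between 0.202 and 0.886 CPM. HSC and KC libraries reached 0.899 and 0.725 CPM, and no pair of cell types differed past the threshold over all 16 libraries, while in the WT libraries alone KCs were lower than HEPs (adjusted p = 0.0298). The summed level of 4 mesothelial markers was 37.5 CPM in KO-labelled EC library 6 and 11.6 CPM in library 46. The HSC library with 0.899 CPM of Rspo1 (KO label, 8) held 17.5 CPM of these markers, and the KC library with 0.725 CPM (KO label, 27) held 34.9 CPM. Other libraries went the other way. KO-labelled KC library 43 held 17.3 CPM of these markers and no read on Rspo1, and WT HEP library 33 held 6.82 CPM beside 0.886 CPM of Rspo1. The part of mesothelial transcripts in the Rspo1 level was not tested.

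Per kilobase of merged exons (GENCODE M21 gene models), the scale on which different genes can be set side by side, Rspo3 in HSCs (114 ± 26.3 CPM per kb, SD, n = 4) and Wnt2 in ECs (96.2 ± 16.7) were far above the rest. Wnt9b in ECs reached 1.70 ± 0.837 CPM per kb and Rspo1 in ECs 0.617 ± 0.661. The receptors, ligases and targets at their highest cell type lay between 0.699 ± 0.332 CPM per kb for Lgr5 in HEPs and 2.65 ± 2.08 for Tbx3 in HEPs, with Lgr4 in HEPs at 2.11 ± 0.404. The range of each of them overlapped with that of Wnt9b in ECs, while Lgr4 and Lgr5 did not overlap with each other. These ranges are without the TMM factors, which raise HEP levels relative to ECs. An overlap between a HEP and an EC gene is therefore stated for this scale only.

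Among the receptors, Lgr4 (ENSMUSG00000050199, chr2:109917647-110014257, plus strand) was detected in every library and Lgr5 (ENSMUSG00000020140, chr10:115450311-115587780, minus strand) nearly only in HEPs. Lgr4 had 15.1 and 10.0 CPM in WT HEPs and 13.7 and 10.9 CPM in KO-labelled HEPs. The 12 other libraries lay between 1.46 and 5.80 CPM, so that HEPs did not overlap with any other cell type. HEPs exceeded KCs by 2.58 ± 0.37 log2 units (adjusted p = 8.92e-05), and KCs, HSCs and ECs did not differ from each other (adjusted p = 0.721 and 0.455 for neighbours).

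Lgr5, a receptor and a pericentral target gene, had 11.0 and 3.68 CPM in WT HEPs and 5.03 and 8.96 CPM in KO-labelled HEPs. The other libraries reached at most 0.738 CPM and 5 of them held no read. The HEP level exceeded the KC level by 5.96 ± 1.22 log2 units (adjusted p = 0.00127), and it was also above ECs (adjusted p = 0.000428) and HSCs (adjusted p = 0.000516). The WT HEP libraries differed from each other by more than the labels did.

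Of the ligases, Znrf3 (ENSMUSG00000041961, chr11:5276324-5444847, minus strand) was found in all cell types with its lowest level in ECs, while Rnf43 (ENSMUSG00000034177, chr11:87662722-87735539, plus strand) was found mainly in HEPs. Znrf3 had 4.54 and 4.58 CPM in WT ECs and 1.88 and 1.53 CPM in KO-labelled ECs. HSCs lay between 10.6 and 14.9 CPM, KCs between 7.39 and 15.0 CPM and HEPs between 5.99 and 9.91 CPM. All EC libraries were below all others, by 2.79 ± 0.32 log2 units against HEPs (adjusted p = 1.15e-05) and by 2.34 ± 0.31 against HSCs (adjusted p = 0.000171), although in the WT libraries alone the difference from HSCs did not pass (-1.51 log2 units, adjusted p = 0.0601). HSCs, KCs and HEPs did not differ from each other, and the direction between HSCs and HEPs depended on the scale: HSCs minus HEPs was -0.45 ± 0.30 log2 units (adjusted p = 0.207) with TMM factors and 0.69 (adjusted p = 0.0585) on library totals.

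Rnf43 had 14.02 and 7.77 CPM in WT HEPs and 3.93 and 3.64 CPM in KO-labelled HEPs. The highest value outside HEPs was 2.05 CPM in WT HSC library 40, and neither KO-labelled HSC library held a read. ECs reached 0.487 CPM and KCs 1.19 CPM. HEPs thus did not overlap with the other cell types, and they exceeded HSCs by 6.94 ± 1.53 log2 units (adjusted p = 0.00253) and ECs by 5.90 ± 1.31 (adjusted p = 0.00250). The value against HSCs includes the KO-labelled HSC libraries at 0 and depends on the prior count there: in the WT libraries alone HEPs exceeded HSCs by a smaller amount (HSCs minus HEPs -4.07 log2 units, adjusted p = 0.0292).

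The targets parted by cell type. Axin2 (ENSMUSG00000000142, chr11:108920349-108950783, plus strand), the negative feedback scaffold widely read as a Wnt reporter, was highest in HSCs and near the floor in HEPs. HSCs had 4.42 and 5.31 CPM in WT and 5.46 and 4.77 CPM under the KO label. ECs had 4.47 and 0.699 CPM in WT and 0.975 and 1.74 CPM under the KO label, and HEPs had 0.319, 0.273, 0 and 0.472 CPM. KCs held no read in WT and 1.12 and 0.0677 CPM under the KO label, below ECs by 4.40 ± 1.32 log2 units (adjusted p = 0.0260). WT EC library 34 reached the HSC range, and HSCs and ECs did not differ (1.63 ± 0.97 log2 units, adjusted p = 0.249), while HSCs exceeded HEPs (3.07 ± 1.06, adjusted p = 0.0281). That last difference did not pass without WT HEP library 29 (3.35, adjusted p = 0.0626), without WT HEP library 33 (3.29, adjusted p = 0.0657) or in the WT libraries alone (2.95, adjusted p = 0.0817). An antisense gene, Gm11670, overlaps 209 exonic bases of Axin2.

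Tbx3 (ENSMUSG00000018604, chr5:119670669-119684724, plus strand), a T-box factor and Wnt target of pericentral hepatocytes, had 15.5 and 37.2 CPM in WT HEPs and 12.2 and 5.32 CPM in KO-labelled HEPs. In ECs it had 3.35 and 4.66 CPM in WT and 1.11 and 0.417 CPM under the KO label. HSC libraries lay between 0.415 and 4.55 CPM and KC libraries between 0 and 3.00 CPM. HEPs did not overlap with the other cell types and exceeded ECs by 4.49 ± 1.01 log2 units (adjusted p = 0.00225). Tbx3os1, on the other strand, overlaps 115 of its exonic bases.

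Between the labels, none of the 10 genes passed the threshold in any cell type. Each comparison set 2 libraries against 2 in edgeR, and an exact permutation test of such groups cannot go below p = 0.333. In ECs, 8 of the 10 genes could be tested, 0 passed and 2 had an unadjusted p under 0.05, beside 2.08% of all genes that passed, 0.116% higher and 1.97% lower under the KO label (305 genes of 14631, with 2192 at an unadjusted p under 0.05 and 983 past the threshold in DESeq2). DESeq2 passed 0 of the 8. Hepatocyte-enriched genes were those with at least 10 CPM in WT HEPs and at least 8 times the WT KC level. With these left out of the edgeR fit, 0 of 13799 genes passed in ECs, where 1666 had an unadjusted p under 0.05. The lowest adjusted p in that edgeR fit was 0.059, close to the threshold. In HSCs 0 of 6 passed (1 with an unadjusted p under 0.05, DESeq2 0), in KCs 0 of 6 (2, DESeq2 1) and in HEPs 0 of 7 (2, DESeq2 0). Over all genes, 0% passed in HSCs, 0% in KCs and 0% in HEPs with edgeR, where 1259, 706 and 821 genes had an unadjusted p under 0.05 and DESeq2 passed 408, 72 and 32 genes. The median log2 fold change of the genes tested was -0.75 in ECs, 0.05 in HSCs, -0.34 in KCs and -0.19 in HEPs, against -0.01, 0.02, -0.02 and -0.02 for all genes.

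**Figure D2:**
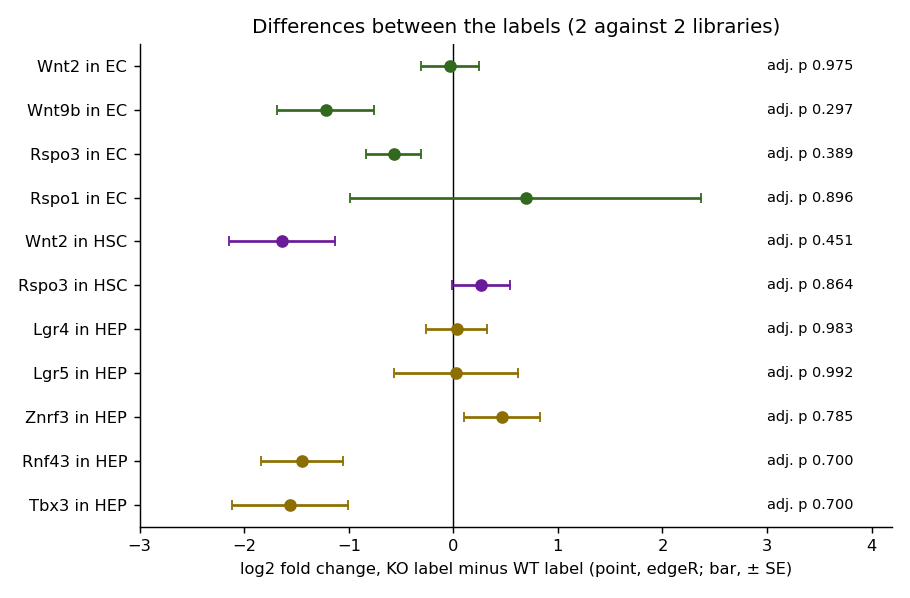
Log2 fold change of the KO-labelled over the WT libraries (point, edgeR estimate; bar, ± SE; 2 against 2 libraries) for the ligands in ECs and HSCs and for the receptors, ligases and targets in HEPs, where testable, with adjusted p-values. Wnt9b in ECs (-1.22), Wnt2 in HSCs (-1.64), Rnf43 in HEPs (-1.45) and Tbx3 in HEPs (-1.56) lie farthest below 0, and none passes.

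In ECs, Wnt2 did not separate by label (-0.03 ± 0.27 log2 units, adjusted p = 0.975). Wnt9b was lower in both KO-labelled libraries than in both WT libraries, but the difference did not pass (-1.22 ± 0.47, adjusted p = 0.297). Rspo3 lay lower as well without overlap (-0.57 ± 0.26, adjusted p = 0.389), and Rspo1 overlapped (0.69 ± 1.68, adjusted p = 0.896). HSC transcripts were lower beside Rspo3: the median HSC marker stood at 1.54% and 1.94% of its HSC level in WT EC libraries 34 and 38 and at 0.481% and 0.727% in KO-labelled libraries 6 and 46, where Rspo3 stood at 8.11%, 9.78%, 6.51% and 5.55% of its HSC mean. All 9 HSC markers tested had a negative estimate and 1 (Col3a1) passed, and their part in the Rspo3 difference was not tested. In these bulk libraries, fewer cells that hold a transcript and less of it per cell cannot be told apart. The 4 pericentral EC genes on the list (Kit, Cdh13, Fabp4 and Thbd) had a median log2 fold change of 0.21 and 0 of 4 passed, and of the 4 periportal EC genes (Dll4, Ltbp4, Efnb2 and Ntn4; median -0.40) 0 passed.

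In HSCs, Rspo3 did not differ by label (0.26 ± 0.28 log2 units, adjusted p = 0.864). Wnt2 was lower under the KO label without overlap and did not pass (-1.64 ± 0.51, adjusted p = 0.451). Beside it, the summed level of the 10 EC markers in HSCs ran from 387 to 751 CPM in WT and from 288 to 318 CPM under the KO label, with none of the markers at 0. As a share of the EC level, Wnt2 stood at 4.96% and 3.16% in the WT HSC libraries 32 and 40 and at 1.37% and 1.28% in the KO-labelled libraries 8 and 20. The median EC marker stood at 5.25%, 1.79%, 1.24% and 2.21% in the same libraries, and the part of EC transcripts in the Wnt2 level of HSCs was not tested.

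In KCs, both Wnt ligands stood lower under the KO label, where the median EC marker stood higher. Wnt2 was lower in both KO-labelled libraries (-2.69 ± 0.88 log2 units, adjusted p = 0.933). Wnt9b had 29 and 70 reads in the WT libraries and no read in either KO-labelled one, at least 16.2-fold lower against the floor of 3 reads per library, and its adjusted p was also 0.933 in edgeR, 0.0284 in DESeq2 and 0.0193 when edgeR was run with low counts kept in. With low counts kept, Wnt2 passed too (-2.69, adjusted p = 0.0241). Over all genes, 159 of 22595 passed in that fit and 72 of 13867 in DESeq2, against 0 of 13867 in edgeR with the filter. The median EC marker in KCs stood at 1.89% and 3.42% of its EC level in WT and at 6.12% and 4.89% under the KO label. Wnt9b in the WT KC libraries 31 and 39 reached 25.4% and 59.6% of its EC mean, above the median EC marker in the same libraries. The highest single EC marker stood at 78.8% and 92.2% there and at 80.0% and 85.7% in KO-labelled libraries 27 and 43. Of the 10 EC markers, 9 were higher in ECs than in KCs past the threshold, and Cdh5 was not (-0.07 log2 units). Neither label difference passed in the comparison as designed, and the part of EC transcripts in the Wnt2 and Wnt9b levels of KCs was not tested.

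**Figure D3:**
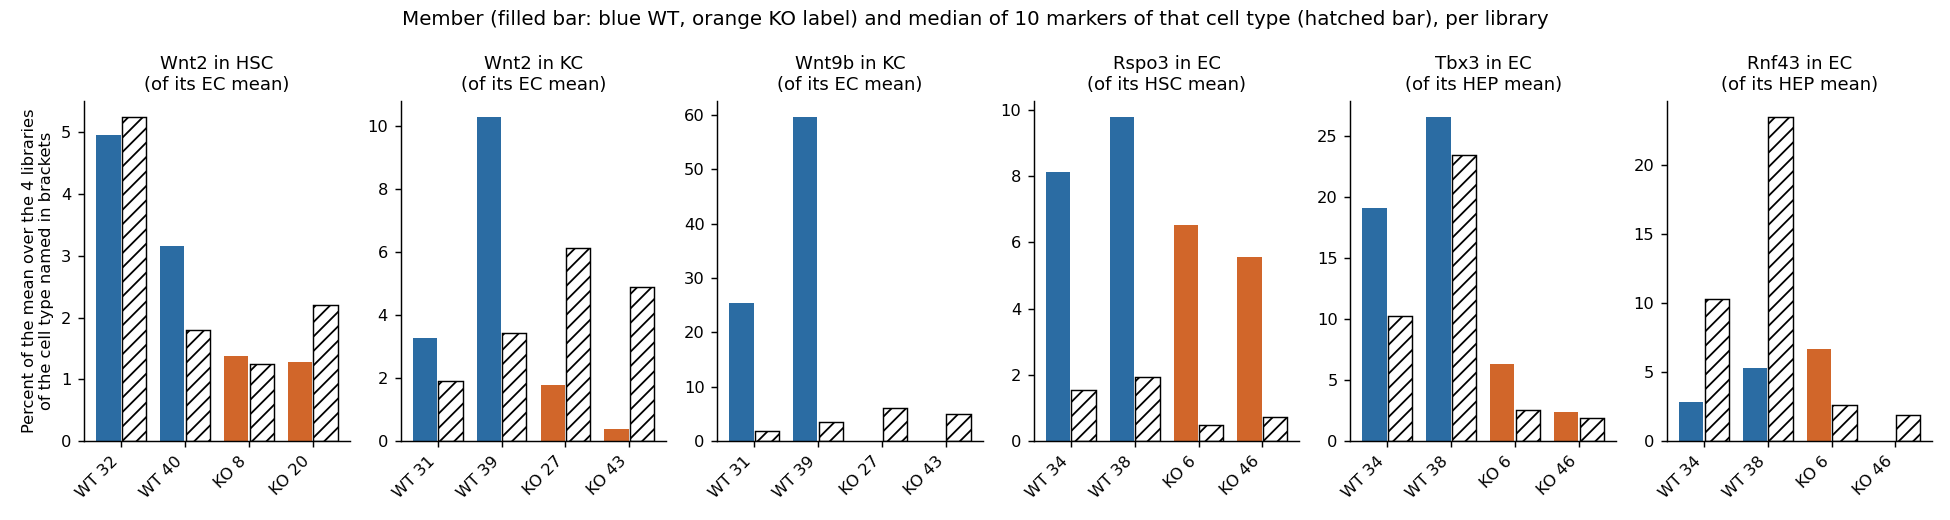
Level of a gene in each library of one cell type (filled bars, blue WT and orange KO label; numbers are library numbers) as a percent of its mean in the cell type where it is highest, beside the median of 10 markers of that cell type (hatched). Tbx3 in ECs and the HEP markers are both lower in the KO-labelled libraries. Wnt2 and Wnt9b in KCs are lower under the KO label, where the median EC marker is higher. Rspo3 in ECs stands above the median HSC marker in all 4 libraries.

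In HEPs, the receptors did not separate by label: Lgr4 differed by 0.03 ± 0.29 log2 units (adjusted p = 0.983) and Lgr5 by 0.03 ± 0.59 (adjusted p = 0.992), and both estimates turned to slightly negative values on library totals (-0.04 and -0.08). Znrf3 stood higher under the KO label without overlap and did not pass (0.47 ± 0.36, adjusted p = 0.785). Rnf43 was lower in both KO-labelled libraries (-1.45 ± 0.39, adjusted p = 0.7003, unadjusted p = 0.0106). Tbx3 was lower as well (-1.56 ± 0.55, adjusted p = 0.7003, unadjusted p = 0.0305). In edgeR without the filter on low counts, 227 of 19933 genes passed, against 0 of 11548 with it. Tbx3 was among them with the same estimate (adjusted p = 0.000426). Its size rested on WT library 33: without it the difference was -0.72 log2 units (adjusted p = 0.832). Axin2 and the ligands Wnt9b and Rspo1 were too low in HEPs to be tested.

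The pericentral hepatocyte genes on the list, which Wnt signalling sustains, did not separate by label. Of 11 in HEPs, 0 passed and none had an unadjusted p under 0.05 (median 0.17), Glul, the glutamine synthetase of the innermost pericentral hepatocytes, differed by 0.17 ± 0.38 log2 units (adjusted p = 0.923), and Cyp2e1 by 0.22 ± 0.46 (adjusted p = 0.920). Of the 10 periportal genes 0 passed and 1 had an unadjusted p under 0.05 (median 0.22). DESeq2 also passed 0 of the genes on both lists in HEPs. Without the low-count filter in edgeR, where 227 of 19933 genes passed, 1 of the listed genes did so, the periportal Cps1. It was lower under the KO label (-0.93 ± 0.54 log2 units with the filter, adjusted p = 0.735). The median HEP marker stood at 92.5% and 98.3% of its HEP mean in the WT libraries and at 102% and 109% under the KO label, and the median EC marker fell between 0.268% and 0.706% of its EC level in all 4 libraries.

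In ECs, Tbx3 (-2.39 ± 0.84 log2 units, adjusted p = 0.265) and Znrf3 (-1.42 ± 0.66, adjusted p = 0.389) were lower in both KO-labelled libraries and did not pass. Hepatocyte transcripts moved the same way there: the summed level of the 10 HEP markers ran from 14653 to 31367 CPM in WT ECs and from 2516 to 3443 CPM in KO-labelled ECs, with all 10 lower past the threshold. Tbx3 in ECs stood at 19.1% and 26.5% of its HEP mean in WT libraries 34 and 38 and at 6.35% and 2.38% in the KO-labelled libraries 6 and 46, beside 10.3%, 23.5%, 2.57% and 1.86% for the median HEP marker. For Znrf3, which was higher outside ECs in all 3 cell types, KO-labelled ECs held 15.6% and 12.7% of the HSC mean and WT ECs 37.7% and 38.1%. The part of hepatocyte transcripts in either difference was not tested.

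A difference between labels that differs between cell types was tested by an interaction term over all 16 libraries. For ECs against HSCs 0 of 10 genes passed (0.0349% of all genes), and for ECs against HEPs 0 of 10 (0.0697%), with 1 gene under an unadjusted p of 0.05 in each. That gene was Znrf3 in both, by -1.71 ± 0.60 log2 units against HSCs (adjusted p = 0.878) and by -1.93 ± 0.61 against HEPs (adjusted p = 0.241). In DESeq2, the difference against HEPs passed (-2.02, adjusted p = 0.0370), beside 593 of all 17214 genes. None of the 10 passed against HSCs in DESeq2, beside 98 of 17214.

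The wider pathway was read from 10 lists with 109 genes. Between the labels, 0 of these genes were higher and 7 lower in ECs, of 74 tested, and 0 of 74 passed in HSCs, 0 of 65 in KCs and 0 of 63 in HEPs. Genes with an unadjusted p under 0.05 numbered 18 in HSCs, 8 in KCs and 5 in HEPs, and DESeq2 passed 1 higher (Fabp4, on the pericentral EC list) and 15 lower in ECs, 12 lower in HSCs, 0 in KCs and 0 in HEPs. The 7 in ECs were all hepatocyte genes: the pericentral Cyp2e1 (-2.95 ± 0.51 log2 units, adjusted p = 0.0483) and Gulo (-2.54 ± 0.45, adjusted p = 0.0492), and the periportal Pck1 (-3.98 ± 0.27, adjusted p = 0.0190), Cyp2f2, Cps1, Hsd17b13 and Ass1. They moved with the HEP markers given above. The 12 lower in HSCs with DESeq2 were all on the pericentral and periportal hepatocyte lists, and beside them the summed level of the 10 HEP markers ran from 3969 to 9651 CPM in WT HSCs and from 690 to 1849 CPM under the KO label. All 10 of these markers had a negative estimate in HSCs with an unadjusted p under 0.05 and 0 passed in edgeR, and their part in the 12 was not tested. None passed on the lists of other Wnt ligands (4 tested), Wnt secretion (2), inhibitors (5), receptors (10), intracellular components (20) and feedback genes (5) in ECs.

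**Figure D4:**
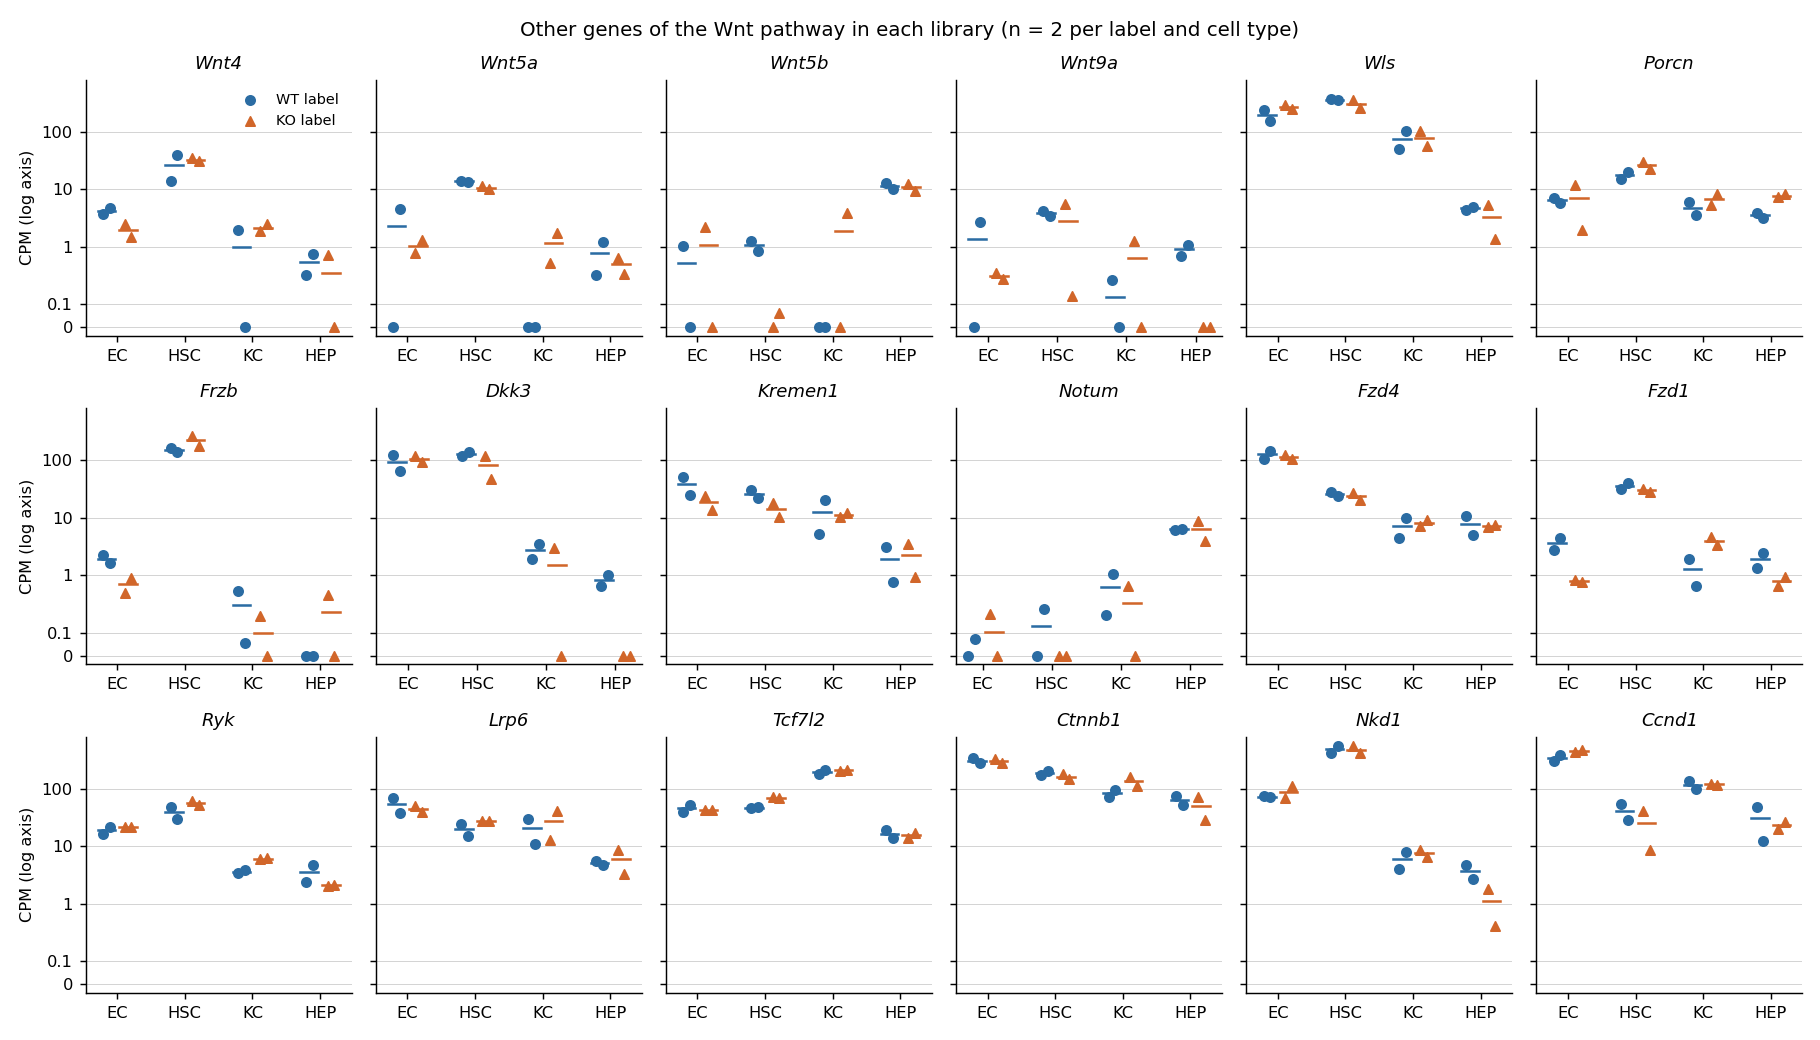
CPM (log axis, libraries at 0 drawn at the foot) of 18 other Wnt pathway genes in each library of the 4 cell types; circles are WT and triangles KO-labelled libraries, and bars are the means of 2. HSCs were highest for Wnt4, Wnt5a, Frzb, Fzd1 and Nkd1, ECs for Fzd4 and Ccnd1, KCs for Tcf7l2, and HEPs for Wnt5b and Notum.

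Other ligands were found in other cells than Wnt2 and Wnt9b. Of the 19 other Wnt genes, 5 could be tested between cell types. Wnt4 lay between 13.8 and 38.8 CPM in HSCs and at most at 4.66 CPM elsewhere, with ECs lower than HSCs by 3.60 ± 0.91 log2 units (adjusted p = 0.0117). Wnt5a lay between 9.96 and 14.1 CPM in HSCs and at most at 4.51 CPM elsewhere (ECs minus HSCs -3.22 ± 1.02, adjusted p = 0.0382). Wnt5b was the HEP ligand, between 9.37 and 12.6 CPM there and at most 3.79 CPM elsewhere (HSCs minus HEPs -6.79 ± 1.59, adjusted p = 0.00360). Wnt9a and Wnt2b reached at most 5.53 and 3.19 CPM in any library.

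Of the 2 secretion genes, Wls was higher in ECs and HSCs than in HEPs, and Porcn did not pass in either of these comparisons. Wls, the carrier that takes Wnt proteins to the cell surface, lay between 154 and 291 CPM in ECs, between 254 and 365 CPM in HSCs and between 1.35 and 5.29 CPM in HEPs. ECs exceeded HEPs by 4.52 ± 0.40 log2 units (adjusted p = 1.26e-06), and ECs and HSCs did not differ (-0.76 ± 0.34, adjusted p = 0.121). Porcn, the acyltransferase that lipidates Wnt proteins, was higher in HSCs (15.2 to 29.9 CPM) than in ECs (1.95 to 12.0 CPM; ECs minus HSCs -1.95 ± 0.46, adjusted p = 0.00847).

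Wnt inhibitors also differed by cell type. Frzb, a soluble Frizzled-related protein, lay between 137 and 265 CPM in HSCs and at most at 2.23 CPM elsewhere (ECs minus HSCs -7.51 ± 0.60 log2 units, adjusted p = 5.55e-06). Dkk3 was found in both ECs (65.9 to 123 CPM) and HSCs (46.5 to 137 CPM), which did not differ (adjusted p = 0.801). Notum, the deacylase that inactivates Wnt proteins and a pericentral target gene, was the HEP inhibitor with 3.98 to 8.64 CPM and at most 1.04 CPM elsewhere (KCs minus HEPs -4.84 ± 1.10, adjusted p = 0.00313). Kremen1 lay between 13.4 and 51.7 CPM in ECs and Sfrp1 at most at 5.38 CPM in any library.

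Among the receptors, Fzd4 was highest in ECs (104 to 147 CPM), above HSCs by 2.02 ± 0.26 log2 units (adjusted p = 0.000126). Fzd1 was highest in HSCs (28.0 to 39.3 CPM), above ECs by 4.50 ± 0.45 (adjusted p = 1.55e-05). Ryk, an alternative Wnt receptor, lay between 30.1 and 61.3 CPM in HSCs, and the co-receptors Lrp6 and Lrp5 lay between 38.1 and 68.7 CPM and between 35.3 and 56.5 CPM in ECs. In HEPs, Fzd4 had 4.91 to 10.6 CPM, Lrp6 3.30 to 8.45 CPM, Ryk 2.06 to 4.77 CPM and Fzd7 1.69 to 3.22 CPM.

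Inside the cell, Tcf7l2, a TCF factor, was highest in KCs (178 to 214 CPM) and lowest by CPM in HEPs (13.6 to 18.7 CPM), where the difference between ECs and HEPs did not pass with TMM factors (0.10 ± 0.16 log2 units, adjusted p = 0.602). Ctnnb1, which encodes β-catenin, lay between 276 and 339 CPM in ECs and between 28.6 and 73.5 CPM in HEPs (1.10 ± 0.25, adjusted p = 0.00218). The kinases Csnk1a1 and Gsk3b lay between 221 and 307 CPM and between 120 and 149 CPM in ECs.

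Of the feedback genes, Nkd1 was highest in the same cell type as Axin2. Nkd1, a feedback inhibitor that binds Dishevelled, lay between 409 and 557 CPM in HSCs, between 67.3 and 110 CPM in ECs and between 0.404 and 4.78 CPM in HEPs. Both steps passed, with ECs minus HSCs at -2.82 ± 0.34 log2 units (adjusted p = 7.95e-05) and ECs minus HEPs at 3.95 ± 0.37 (adjusted p = 2.40e-06). Nkd2 was highest in ECs (12.9 to 25.1 CPM), and no read fell on it in HEPs. Ccnd1 lay between 302 and 471 CPM in ECs and Myc between 102 and 323 CPM there.

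Pericentral hepatocyte genes were not all specific to HEPs. All 11 were higher in HEPs than in ECs past the threshold (25.5% of all genes), and 10 of 11 were higher than in HSCs (24.4%). The list was chosen as hepatocyte genes, so that these counts are no finding of their own. Glul lay between 168 and 200 CPM in ECs and between 101 and 191 CPM in HEPs, which overlap, and with TMM factors it was lower in ECs (ECs minus HEPs -1.05 ± 0.31 log2 units, adjusted p = 0.0116). Oat lay between 828 and 970 CPM in HSCs and between 240 and 552 CPM in HEPs, and HSCs and HEPs did not differ on the TMM scale (0.05 ± 0.28, adjusted p = 0.921). Cyp2e1 (3426 to 8605 CPM) and Cyp2c29 (1849 to 1962 CPM) led the list in HEPs, and the periportal list was led by Cyp2f2 (3100 to 4456 CPM) and Ass1 (2075 to 4298 CPM).

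Across the 16 libraries, the genes whose log2 CPM followed each of the 10 most closely were named by Pearson's r among 17204 other genes. The libraries fall into 4 cell types, so that a high r mostly reads the cell type, and r is given as a description. Wnt2 was followed by Fam189a2, Ralgapa2 and Cyp4b1-ps2 (r = 0.96 for each), and Wnt9b by Gm18829 (0.94), Foxc1 (0.94) and Eapp (0.93). Rspo3 was followed by Efemp2 (0.99), S100a11 (0.99) and Abcc9 (0.98), and Axin2 by Tmem158, Vcl (0.94 for both) and Acot11 (0.93). Among the genes highest in HEPs, Lgr4 was followed by Sugct (0.93), Nudt4 (0.93) and Mpv17l (0.93), Lgr5 by Gm15375 (0.97), Cyc1 (0.94) and Sfxn2 (0.94), Rnf43 by Mtfr1 (0.93) and Foxa3 (0.89), and Tbx3 by Hip1r (0.93), Slc33a1 (0.92) and Arsg (0.92). Znrf3 was followed by Snrpn (0.92), Ephx1 (0.91) and Irs2 (0.90), and Rspo1, which was low, by Nkain4 (0.82), Cttnbp2 (0.72) and 2810039B14Rik (0.72).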

How the data were processed

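RNA of 4 sorted cell types from WT and KO-labelled mouse livers was sequenced, and the authors deposited raw read counts per gene for each of the 16 libraries. Per the submitters' processing notes, reads were trimmed with Trimmomatic 0.32, aligned to GRCm38 with HISAT2 2.1.0 and counted with HTSeq 0.9.1. The annotation release and the strand setting are not given in the sources used here, and 98.9% of the gene identifiers were in GENCODE M21. The labels name both a stranded kit and a Smart-seq2 protocol. The 5 summary lines of each file, which hold 42.5% to 57.5% of its reads, were left out.

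CPM were computed from the counts over gene rows. Tests used edgeR 4.0.16 (filterByExpr, TMM, quasi-likelihood test) in R 4.3.3 with Benjamini-Hochberg adjustment over all genes tested and a threshold of 0.05. Labels were compared within each cell type, and cell types and interactions in a fit of all 16 libraries. DESeq2 1.42.0, other factors, no low-count filter, no hepatocyte-enriched genes, WT libraries alone and leaving out each library were tried as alternatives. The procedure was tested on simulated counts. The 10 genes and the gene lists were chosen with earlier results of these data known. Other genes were named if past the threshold between labels, or as up to 4 per list with the highest mean CPM in the cell types where the list is read. Sums of the further markers served as a check: in ECs they were 265 CPM in both WT libraries and 130 to 207 CPM under the KO label for cholangiocytes, 128 to 254 and 71.4 to 79.2 for lymphocytes, 17.3 to 19.7 and 11.6 to 37.5 for mesothelium, and 95.3 to 107 and 220 to 257 for mural cells and fibroblasts. Cd34, which endothelial cells can also express, led the last sum in every EC library and was the only one of its 7 genes tested to pass between the labels. For each of the 10 genes, the 3 genes with the most similar profile were taken by rule, and 1 of them is not reported here.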

Additional observations from a re-analysis of the deposited data

How the results depend on the processing

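The counts of the 10 genes past the threshold stayed within 1.5 times, or stayed at 0, in 144 of 150 recomputed values. All label and interaction comparisons had a count of 0, where a ratio has no meaning and a count can only rise. Those that did not are given beside the count over all genes in the same setting. Between labels in KCs they were 1 with DESeq2 (72 of 13867) and 2 without the low-count filter (159 of 22595), against 0. Between labels in HEPs it was 1 without that filter (227 of 19933) against 0. For KCs against HEPs it was 9 in the WT libraries alone (6489 of 15979) against 5. For the label difference of ECs against HEPs it was 1 with DESeq2 (593 of 17214) against 0. For ECs against KCs, leaving out 1 library in turn gave 3 to 6 against 5, with the 3 without KO-labelled KC library 43. The cause was not tested. Of 390 recomputed fold changes, 11 turned sign, none of them past the threshold. Leaving out 1 library in turn, Wnt2 between labels ran from -0.325 to 0.352 in ECs, Rspo3 in HSCs from -0.035 to 0.62, Rspo1 in ECs from -6.61 to 1.7, Lgr4 in HEPs from -0.188 to 0.297 and Lgr5 in HEPs from -0.521 to 0.952. On library totals, an alternative chosen after the levels had been seen, Lgr4 (-0.036) and Lgr5 (-0.075) between labels in HEPs and Znrf3 between HSCs and HEPs (0.687) turned sign, and Wnt2 then differed between HSCs and HEPs (1.69, adjusted p = 0.0166). No paired analysis was possible because the library numbers are not shared between groups. With 2 libraries per group, the standard errors of the label differences given for ECs, HSCs and HEPs ran from 0.26 to 1.68 log2 units. Differences larger than their standard error did not pass either, such as Rnf43 in HEPs (-1.45 ± 0.39), so that real differences could be missed.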
